A study of Mus musculus with 6 samples.

Results

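B cells of mouse aorta were selected on their own transcript counts, as the single cells with at least 3 unique transcript counts (UMIs) summed over Cd79a, Cd79b and Ms4a1 and none of Cd3e, a T cell gene, or Csf1r, a macrophage gene. Cells had to show at least 300 genes and under 20% mitochondrial UMIs, which kept 59413 of 62838 cells. Of these, 5965 met the B cell rule. T cells, with at least 2 UMIs over Cd3e, Cd3d and Cd3g, numbered 2570 and served for comparison. A further comparison set of 21291 fibroblast-rule cells had at least 20 UMIs over the collagen and decorin genes Col1a1, Col1a2 and Dcn and no Ptprc, the pan-leukocyte gene. All 6 samples were aortas of C57B/6J mice aged 18 weeks, 3 labelled control (a normal diet, per the design text) and 3 labelled high-fat diet. No transgene, allele or other agent is named for either group. The labels do not say whether samples were single or pooled aortas or separate animals, so p-values measure the spread between these 6 samples only. Each sample joined 2 gel-bead wells, recognised by the suffix of the cell barcode.

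B lymphocytes recognise antigen through a surface immunoglobulin whose signal is carried by the paired chains Cd79a and Cd79b, and they present peptides to T cells on MHC class II. After activation some become plasma cells, which switch off Pax5 and MHC class II genes, switch on Prdm1 and Xbp1, and enlarge the endoplasmic reticulum to secrete antibody held together by the joining chain Jchain. Around the aorta, B cells are found mainly in the outer coat, in the surrounding fat and in local lymph nodes, and both protective and harmful roles in atherosclerosis have been described for different B cell subsets.

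The promoters shown first belong to 5 genes that were higher in B cells on the high-fat diet. These genes serve the folding of proteins in the endoplasmic reticulum or the removal of misfolded ones. Their promoters are shown because each holds the endoplasmic reticulum stress response element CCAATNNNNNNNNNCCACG, which stress-activated transcription factors are known to bind. Sequences are the 250 bases before the RefSeq start site on build GRCm38.p6, read 5′ to 3′ on the gene's strand, with the fixed letters of the element, or of its reverse complement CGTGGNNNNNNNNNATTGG, in capitals. Hspa5 (chr2:34771840-34772089, plus strand) encodes the main folding chaperone of this compartment, and its element lay 65 to 47 bases before the start. Pdia6 (chr12:17266339-17266588, plus strand) encodes a disulfide isomerase, with the element at 98 to 80 bases. Creld2 (chr15:88819396-88819645, plus strand) encodes a secreted stress-induced protein, with the reverse complement at 126 to 108 bases. Derl3 (chr10:75893148-75893397, plus strand) encodes a factor that removes misfolded proteins, with the reverse complement at 156 to 138 bases. Hsp90b1 (chr10:86705445-86705694, minus strand) encodes a further chaperone and held both, at 212 to 194 and at 107 to 89 bases.
Hspa5: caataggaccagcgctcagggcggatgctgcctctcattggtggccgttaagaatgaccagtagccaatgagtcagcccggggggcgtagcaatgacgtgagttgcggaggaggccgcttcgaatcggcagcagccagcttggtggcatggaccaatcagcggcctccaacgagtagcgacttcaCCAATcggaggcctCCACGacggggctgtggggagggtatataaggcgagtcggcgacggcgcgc
Pdia6: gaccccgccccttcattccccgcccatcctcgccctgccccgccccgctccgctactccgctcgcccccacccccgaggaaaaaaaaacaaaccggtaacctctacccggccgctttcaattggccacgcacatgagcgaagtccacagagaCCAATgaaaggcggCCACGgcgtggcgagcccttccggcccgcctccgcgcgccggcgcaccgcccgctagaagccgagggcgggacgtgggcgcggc
Creld2: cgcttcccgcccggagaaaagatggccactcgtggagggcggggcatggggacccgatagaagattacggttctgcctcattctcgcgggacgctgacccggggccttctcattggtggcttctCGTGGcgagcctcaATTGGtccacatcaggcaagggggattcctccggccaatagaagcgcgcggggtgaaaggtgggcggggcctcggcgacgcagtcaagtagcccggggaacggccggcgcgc
Derl3: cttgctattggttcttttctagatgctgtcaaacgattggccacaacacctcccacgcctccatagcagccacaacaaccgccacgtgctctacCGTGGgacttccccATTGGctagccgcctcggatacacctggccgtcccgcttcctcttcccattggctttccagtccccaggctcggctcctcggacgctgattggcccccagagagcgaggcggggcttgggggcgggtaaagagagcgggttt
Hsp90b1: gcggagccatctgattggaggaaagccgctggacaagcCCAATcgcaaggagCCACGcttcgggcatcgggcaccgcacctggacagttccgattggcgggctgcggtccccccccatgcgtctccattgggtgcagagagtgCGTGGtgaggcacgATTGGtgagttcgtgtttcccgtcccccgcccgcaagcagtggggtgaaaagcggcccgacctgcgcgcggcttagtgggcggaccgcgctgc

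Both strands were searched for the whole element. It was found in the same window of 37 of 32851 promoters in the RefSeq table (0.113%) and of 12 of the 7359 genes tested for diet that had a promoter there (0.163%). In the list of unfolded protein response genes, 7 of 18 matched genes held it (Calr, Canx, Creld2, Dnajc3, Hsp90b1, Hspa5 and Pdia6), and 5 of the 10 matched genes called higher on the high-fat diet did. In the plasma cell list it was found in 2 of 10 matched genes, Creld2 and Derl3. It was found in 0 of 8 matched MHC class II genes and 0 of 8 matched follicular B cell genes. A match describes these letters only and shows no binding.

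The label was checked with a gene the rule did not use. H2-DMb2, a class II peptide-loading gene of B cells, had at least 1 UMI in 69.0%, 82.1% and 82.3% of B cells in control 1, 2 and 3, and in 72.7%, 76.7% and 66.2% in high-fat diet 1, 2 and 3. The same gene was seen in 1.09% to 18.3% of T cells and 1.37% to 14.5% of fibroblast-rule cells, which carry free RNA from broken cells. Median depth was 2308.5 to 5827 UMIs in B cells and 3091 to 4807 in T cells. H2-DMb2 was above the free-RNA background in every sample.

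The edge of the rule was less pure. Cells with a rule sum of exactly 3 numbered 331, and 31.7% of them had an H2-DMb2 UMI, against 19.1% of the 992 cells with a sum of 2 that fell just outside and 80.8% of all members. A further 950 cells passed the sum but were left out for a Cd3e or Csf1r UMI. Of the members, 55 also met the T cell rule and stayed B cells, 213 had a Scrublet doublet score above 0.25, and 331 had at least 20 fibroblast UMIs. Over the 12 wells, 18 barcodes occurred as B cells in 2 or more wells, with at most 9 shared by any pair. Of these, 2 were shared by the wells of control 2 and 1 by the wells of control 3, and the rest lay between samples.

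B cells were very unevenly spread. Control 1, 2 and 3 held 29, 2728 and 2471 of them, or 0.443%, 16.5% and 29.6% of kept cells. High-fat diet 1, 2 and 3 held 510, 73 and 154, or 4.91%, 0.917% and 1.6%. The groups overlapped, since control 1 was the lowest of all 6 samples while the other controls were the highest. The mean share was 15.5% ± 14.6 (SD, n = 3) in controls and 2.48% ± 2.14 (SD, n = 3) on the high-fat diet, a difference that did not pass an exact two-sided permutation test (p = 0.4, where the smallest possible p is 0.1).

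Wells of the same sample differed as much as samples did. In control 2, well 1 held 2390 B cells (24.8%, 95% Wilson interval 23.9% to 25.7%) and well 2 held 338 (4.88%, 4.40% to 5.41%). In control 3 the order was the opposite, with 17 B cells in well 1 (2.72%, 1.70% to 4.31%) and 2454 in well 2 (31.8%, 30.8% to 32.9%), and well 1 had 626 kept cells in all. In high-fat diet 1, well 1 held 467 (10.9%, 9.96% to 11.8%) and well 2 held 43 (0.708%, 0.526% to 0.952%). In control 1 and in high-fat diet 2 and 3, both wells lay between 0.380% and 2.00%. These intervals cover counting error only. Most members thus came from 3 of the 12 wells, which the plot of shares by well shows.

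**Figure D1:**
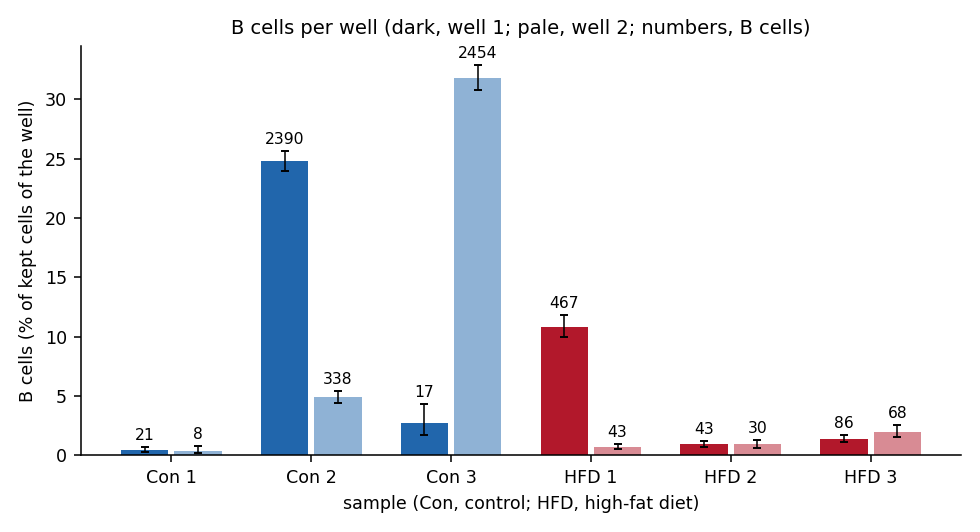
Bars give B cells as a percentage of kept cells in each well, with 95% Wilson intervals; numbers above bars are B cell counts, blue is control, red is high-fat diet, and pale bars are well 2. Well 1 of control 2 (24.8%), well 2 of control 3 (31.8%) and well 1 of high-fat diet 1 (10.9%) stand above the other 9 wells, which reach at most 4.88%.

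The balance of B to T cells followed the same samples. B cells made up 15.1%, 72.4% and 79.1% of B plus T cells in control 1, 2 and 3, and 63.4%, 23.5% and 45.6% in high-fat diet 1, 2 and 3. The means were 55.5% ± 35.2 (SD, n = 3) and 44.2% ± 19.98 (SD, n = 3), with overlapping groups and p = 0.6 in the exact permutation test. T cells themselves were 2.49%, 6.27% and 7.84% of kept cells in controls and 2.83%, 2.98% and 1.91% on the high-fat diet, so both lymphocyte types were most frequent in control 2 and control 3. Without control 3, or in well 1 alone, the high-fat diet mean of the B to B plus T share was the higher one, by 0.410 and 8.30 percentage points.

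Against T cells of the same samples, the B cell program was plain. The rule set B and T cells apart, so these values are a description. With the rule genes left out, 439 of 10237 genes were called higher in B cells (4.29%) and 554 lower (5.41%) at an adjusted p under 0.05 and at least a 2-fold difference. Jchain was highest relative to T cells, at 7422, 4631 and 2716 counts per 1000000 UMIs (CPM) in the control B sums and 15468, 22644 and 14643 on the high-fat diet. In T cells it was 2418 CPM in control 1 and 35.9 to 173 CPM in the other 5 samples. Spib, an Ets-family factor of the B lineage, was 82.1, 141 and 114 CPM in control and 105, 82.8 and 87.5 CPM in high-fat diet B cells, against 0 to 7.54 CPM in T cells. The 10 named here had the largest excess among called genes averaging at least 50 CPM over both cell types. Pax5, at a mean of 38.8 CPM, fell below that level with a log2 difference of 5.48. Besides Jchain and Spib the 10 were Mzb1, which helps immunoglobulin secretion, Ly6d, the transcription factor Bcl11a, the IgM receptor Fcmr, the surrogate light chain gene Vpreb3, the inhibitory lectin Siglecg, the BAFF receptor Tnfrsf13c and the signalling scaffold Bank1, with log2 differences of 4.77 to 5.18. All 10 were higher in B than in T cells in 6 of 6 samples.

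Genes lowest relative to T cells were T and innate lymphocyte genes. Cd163l1, a scavenger receptor of gamma-delta T cells, was 0 to 2.36 CPM in B cells and 74.5 to 312 CPM in T cells. The chemokine receptor Cxcr6 was 0 to 5.87 CPM in B cells and 155 to 527 CPM in T cells. The transcription factor Bcl11b, the cytotoxic granule gene Nkg7, the chemokine Ccl5, Il7r, Cd247, Skap1, Il18r1 and Cd8b1 followed, with log2 differences of -6.36 to -5.38. By list, 12 of 14 B identity genes, 13 of 26 receptor signalling genes, 11 of 18 lineage transcription factors and 10 of 11 MHC class II genes were called at least 2-fold higher in B cells. Of 11 follicular B cell genes, 6 were.

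A small set of cells within the B cells held nearly all Jchain. In 157 cells Jchain made up at least 1% of UMIs, a limit chosen after the values were seen, and these are called Jchain-rich. They numbered 4, 38 and 34 in control 1, 2 and 3 and 56, 10 and 15 in high-fat diet 1, 2 and 3. They held 92.4% to 99.7% of the Jchain UMIs of a sample's B cells. Near the limit there were 4 cells between 1% and 2% and 11 cells between 0.5% and 1%. At least 1 Jchain UMI was found in 13.1% to 66.9% of all B cells, the Jchain-rich ones included, and in 12.01% to 53.9% of fibroblast-rule cells. The B cell share was below the fibroblast-rule share in control 1 and control 2 and above it in the other 4 samples, and it was 42.5% against 20.1% in high-fat diet 2, at median depths of 5827 and 5505.5 UMIs. Median depths were unequal in control 1 (4649 against 7128 UMIs) and control 2 (2308.5 against 4691). With each cell cut at random to 1000 UMIs, the shares were 24.1% against 7.91% in control 1 and 6.12% against 4.22% in control 2. At that equal depth the B cell share was the higher one in all 6 samples.

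**Figure D2:**
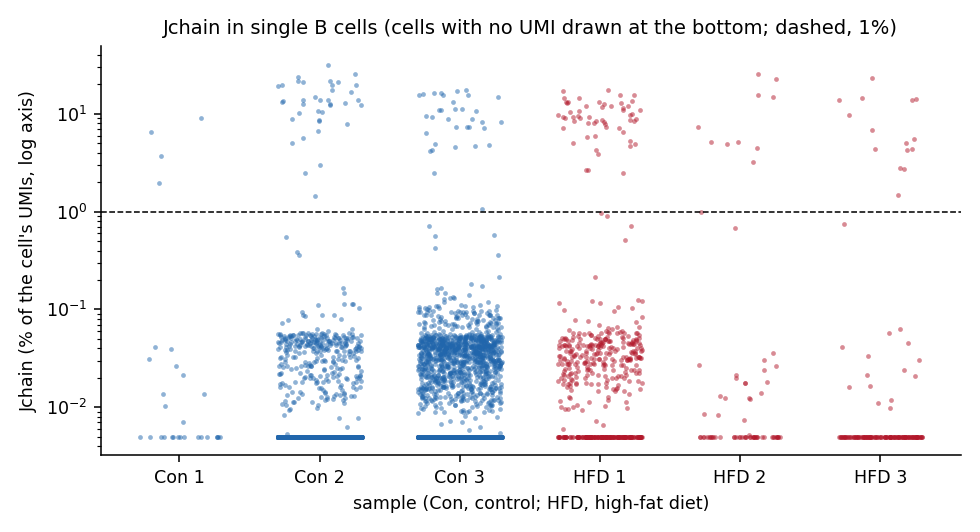
Each point is 1 B cell, and the vertical log axis gives Jchain as a percentage of the cell's UMIs, with cells at 0 drawn at the bottom; the dashed line marks 1%. The 157 cells above the line form a separate upper group in each of the 6 samples.

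Jchain-rich cells carried plasma cell genes. Tnfrsf17, the survival receptor of plasma cells, was 129, 319 and 338 plain CPM, that is without scaling factors between samples, in the Jchain-rich sums of control 1, 2 and 3 and 333, 254 and 274 in those of high-fat diet 1, 2 and 3. In the other B cells it was 0 to 2.47. Xbp1, the factor that builds the secretory apparatus, was 872 to 2242 in Jchain-rich cells and 48.6 to 175 in the others. Prdm1, which ends the B cell program, was 32.3 to 141 against 0 to 20.4. The surface protein Sdc1 was 32.3 to 324 against 8.10 to 29.6.

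Genes of the mature B cell were low in the same cells. Pax5, the lineage factor, was 0 to 4.51 plain CPM in Jchain-rich cells and 56.7 to 100.4 in the other B cells. H2-DMb2 was 0 to 85.7 against 437 to 686, and the class II gene H2-Aa was 359 to 1037 against 2665 to 4511. Within a sample every one of these genes differed between the 2 sets in the direction given. In control 1 the Jchain-rich sum held only 4 cells and 30975 UMIs. Low values there, such as those of Sdc1 and Prdm1, rest on very few UMIs. For these genes control 1 cannot set the 2 sets of cells apart. The cells met the B cell rule mainly through Cd79a, at 420 to 1055 plain CPM, while Ms4a1 was 0 to 158 against 612 to 1054 in the other B cells.

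As a share of B cells, Jchain-rich cells were 13.8%, 1.39% and 1.38% in control 1, 2 and 3 and 11.0%, 13.7% and 9.74% in high-fat diet 1, 2 and 3. Control 1, with 4 such cells of 29 (95% Wilson interval 5.50% to 30.6%), lay with the high-fat diet samples and apart from the other controls, so the groups overlapped. As a share of all kept cells the values were 0.0611%, 0.229% and 0.408% in controls and 0.540%, 0.126% and 0.156% on the high-fat diet, with no such order. In the 3 wells with most B cells the share of B cells was 0.837% (control 2), 1.34% (control 3) and 9.42% (high-fat diet 1). No test was made, because the limit was set on these values.

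The comparison of diets used the summed counts of each sample's B cells. The sums held 154423, 8818111 and 10159747 UMIs in control 1, 2 and 3 and 2627769, 519571 and 651181 in high-fat diet 1, 2 and 3. In control 1, 1 UMI was worth 6.48 CPM and 3 UMIs 19.4 CPM, so genes below that level could hardly be measured there. The log CPM values of control 1 correlated with those of the other samples across genes at 0.749 to 0.777, and the other 5 samples correlated at 0.890 to 0.968. Fewer expressing cells and less RNA per cell cannot be told apart in sums.

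On the high-fat diet, protein-folding and plasma cell genes were higher in B cells, together with Cebpb and Mki67, while cold-inducible genes, a clock gene and several surface genes were lower. Of 9584 genes tested with edgeR, 132 were higher (1.38%) and 36 lower (0.376%) at a Benjamini-Hochberg adjusted p under 0.05. The median log2 change of all tested genes was 0.01. The count rested on which samples entered, since it was 523 without control 1, 11 without control 2, 35 without control 3, 4 without high-fat diet 1, 19 without high-fat diet 2 and 142 without high-fat diet 3. It was 0 when 29 B cells were drawn from each sample (edgeR; 93 at an unadjusted p under 0.05, and 3 adjusted calls by DESeq2). Cebpb, Derl3 and Creld2 were the genes, of the 20 named by rule, that stayed called whichever 1 of the 6 samples was left out.

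Among the named genes that rose, Cebpb (chr2:167688915-167690418, plus strand, in the GENCODE annotation of GRCm38), a transcription factor of inflammatory and metabolic responses, was at 5.83, 6.71 and 8.22 normalised CPM (scaled by factors that level the samples) in controls and 46.8, 59.3 and 40.4 on the high-fat diet. The groups were far apart, and the log2 fold change was 2.69 (SE 0.24, adjusted p = 0.000769 by edgeR). The control 1 value lay under the 19.4 CPM that 3 UMIs were worth in that sample, so it could hardly be measured there. Derl3 was at 29.2, 20.01 and 13.9 in controls and 105, 104 and 90.0 on the high-fat diet, a change of 2.51 (SE 0.23). Creld2 was at 64.2, 40.5 and 32.1 against 237, 219 and 213, a change of 2.50 (SE 0.23). Both had the same edgeR adjusted p of 0.000769, and control 1 was the highest control for each.

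Mki67 (chr7:135689784-135716361, minus strand), a protein of dividing cells, was at 0, 5.29 and 9.06 normalised CPM in controls and 54.5, 57.5 and 27.9 on the high-fat diet. It rose by 2.75 on the log2 scale (SE 0.35, edgeR adjusted p = 0.00614), with the adjusted p at 0.191 at most when 1 sample was left out. The zinc finger gene Zfp811 (2.76), Ccdc82 (2.77), the vesicle traffic gene Lyst (1.95), Fam46c (1.94), which stabilises messages of secreted proteins in plasma cells, Prg2 (1.92) and Tnfrsf17 (2.28) also rose. Their groups did not overlap, which the rule for naming required. The share of all tested genes without overlap is not given, here or where separate groups are described below.

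Among the genes that fell, Nr1d1 (chr11:98767932-98775333, minus strand), the clock repressor REV-ERB alpha, was at 17.5, 49.8 and 51.1 normalised CPM in controls and 5.37, 11.1 and 6.21 on the high-fat diet (log2 change -2.84, SE 0.34, edgeR adjusted p = 0.00488). Cd200, a surface protein that restrains myeloid cells, was at 192, 213 and 295 in controls and 71.0, 117 and 99.3 on the high-fat diet (-1.35, SE 0.24, adjusted p = 0.0204). Rgs2, a brake on G protein signals, was at 58.3, 82.6 and 60.9 against 23.4, 29.7 and 35.7 (-1.31, SE 0.23, adjusted p = 0.0204). Ramp1, the co-receptor for the neuropeptide CGRP, was at 139.97, 94.6 and 118.7 against 32.6, 53.8 and 62.1 (-1.27). Neurl3 (-1.64), Abtb1 (-1.55), Epb41l4aos (-1.37) and Susd5 (-1.28) fell as well. Leaving out 1 sample ended the call for Nr1d1 in 1 of 6 cases (high-fat diet 1) and for Cd200 in 5 of 6.

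The unfolded protein response list, genes that the cell switches on to fold and clear proteins in the endoplasmic reticulum, had 12 of 19 tested members called higher, with a median log2 change of 1.32. Hspa5 was at 251, 170 and 180 normalised CPM in control 1, 2 and 3 and 631, 886 and 574 in high-fat diet 1, 2 and 3. Its change was 1.85 (SE 0.24, edgeR adjusted p = 0.00614). Pdia6 was at 134, 127 and 118 against 351, 437 and 334 (1.58, SE 0.19, adjusted p = 0.00488). Xbp1 (chr11:5520659-5525893, plus strand) was at 192, 143 and 105 against 418, 534 and 539 (1.84, SE 0.24, adjusted p = 0.00614). In all 3 genes the lowest high-fat diet sample was above the highest control.

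Other members of the list that rose were Hsp90b1, Pdia4, Sdf2l1, Manf, Hyou1, Dnajb11, Herpud1 and Calr, besides Creld2. Of these, Hsp90b1, whose promoter is shown, was at 636, 262 and 222 normalised CPM in controls and 1170, 1474 and 1038 on the high-fat diet (1.80, edgeR adjusted p = 0.0454). Atf4 and Ddit3, transcription factors of the stress arm that can lead to cell death, had changes of -0.23 and -0.24 that did not pass the test. The number of list members called was 17 without control 1, 2 without control 2, 4 without control 3, 1 without high-fat diet 1, 4 without high-fat diet 2 and 11 without high-fat diet 3. The median change stayed between 0.98 and 1.51 over these 6 fits.

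The plasma cell list had 8 of 12 tested members called higher, with a median log2 change of 1.75. Jchain (chr5:88519809-88527891, minus strand) was at 7377, 4471 and 2610 normalised CPM in control 1, 2 and 3 and 15096, 21807 and 14286 in high-fat diet 1, 2 and 3 (1.83, SE 0.37, edgeR adjusted p = 0.0309). Prdm1 was at 5.83, 2.97 and 5.16 against 21.1, 18.5 and 41.9 (2.64, adjusted p = 0.0117). Sdc1 was at 11.7, 19.9 and 21.9 against 50.6, 90.8 and 63.6 (1.68, adjusted p = 0.0117). Mzb1, Xbp1, Tnfrsf17, Derl3 and Creld2 were the other members called. Between 2 and 11 of the 12 were called when 1 sample was left out, 3 without control 2 and 2 without high-fat diet 1. The share of Jchain-rich cells was 13.8%, 1.39% and 1.38% in control 1, 2 and 3 and 9.74% to 13.7% on the high-fat diet. The summed list was at 10361, 5186 and 3568 plain CPM in controls and 17438 to 26582 on the high-fat diet. In control 1 the 2 thus parted, with the highest share but a sum below every high-fat diet sample.

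When the 157 Jchain-rich cells were taken out, 91 of 9140 genes were higher (0.996%) and 34 lower (0.372%), and 94 of these calls were among the 168 made with all B cells. The plasma cell list then had 2 of 10 tested members called, with a median of 1.07. Sdc1 turned to -0.07 and did not pass the test, and Derl3 was at 2.61 (edgeR adjusted p = 0.127). Tnfrsf17, Fam46c and Prg2 were then too low to be tested. The Jchain value in these cells is not read, since the cells were chosen by Jchain itself. The unfolded protein response list kept 7 of 19 calls with a median of 1.10. Hspa5 changed by 1.52 (edgeR adjusted p = 0.0291), Creld2 by 1.85 (0.0291), Xbp1 by 1.17 (0.0282) and Pdia6 by 1.22 (0.0297). In the other B cells Hspa5 was at 243, 138 and 162 plain CPM in controls and 397, 792 and 392 on the high-fat diet. In the Jchain-rich cells it was at 420, 524 and 474 in controls and 1819, 1374 and 1406 on the high-fat diet. The groups did not overlap in either set of cells.

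**Figure D3:**
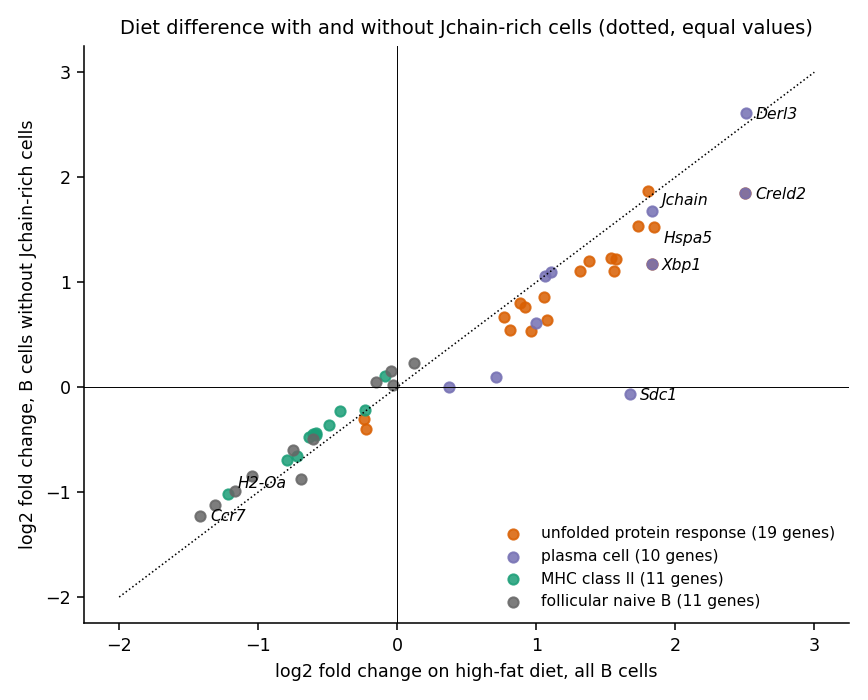
Each point is a gene of 4 lists, with its log2 fold change on the high-fat diet over all B cells on the horizontal axis and without the Jchain-rich cells on the vertical axis; the dotted line marks equal values. Hspa5 (1.85 and 1.52) lies near the line, Xbp1 (1.84 and 1.17) below it, and Sdc1 (1.68 and -0.07) farthest below; Jchain chose the removed cells, so its height is not read.

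Genes of resting follicular B cells, the recirculating naive subset, had negative values in 10 of 11 tested members with a median log2 change of -0.70, but 0 passed the edgeR test. An unadjusted p under 0.05 was reached by 6, and DESeq2 called 1, Fcmr. The share of all tested genes at that unadjusted level is not given, for this list or those below. Such counts are therefore not read as an excess. Fcer2a, the low-affinity IgE receptor CD23, was at 70.0, 253 and 189 normalised CPM in control 1, 2 and 3 and 63.3, 51.9 and 112 in high-fat diet 1, 2 and 3. Control 1 lay among the high-fat diet samples, and the change of -1.31 had an edgeR adjusted p of 0.160. Fcmr had -1.17 with control 1 again lowest of the controls (257, 644 and 539 against 203, 185 and 273, adjusted p = 0.0833). Ccr7, the homing receptor for T cell zones, was at 17.5, 119 and 73.7 against 22.2, 18.5 and 60.5 (-1.42, adjusted p = 0.278). Without control 1, Fcer2a and Fcmr were called lower and Ccr7 was not.

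The 11 MHC class II genes all had negative values, with a median of -0.59, and 0 passed the edgeR test. An unadjusted p under 0.05 was reached by 3, and DESeq2 called 1, H2-Oa. H2-Aa was at 2024, 4953 and 4746 normalised CPM in controls and 2605, 2406 and 2705 on the high-fat diet (-0.61, edgeR adjusted p = 0.375). Control 2 and 3 stood near each other and control 1 below every high-fat diet sample. H2-Oa, which moderates peptide loading in B cells, was at 117, 352 and 305 against 118, 115 and 120 (-1.22, adjusted p = 0.0811). Cd74, the invariant chain, had -0.23 (adjusted p = 0.809). Leaving out control 1 brought H2-Aa, H2-DMb2 and Cd74 past the threshold, each lower on the high-fat diet.

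The list of B1 cells, the innate-like subset that makes natural antibody, had positive values in all 13 tested members with a median of 0.75. It held 0 calls by edgeR, with 6 at an unadjusted p under 0.05, and 0 calls by DESeq2. The list was not particular to B cells, since its sum was 3361 to 6592 plain CPM in B cells and 3662 to 8843 in T cells. S100a6, a calcium-binding protein, was at 2222, 1427 and 1574 normalised CPM in controls and 2381, 2250 and 2499 on the high-fat diet (0.46, edgeR adjusted p = 0.365). The B1 transcription factor Bhlhe41 was at 52.5, 27.6 and 46.6 against 79.4, 42.6 and 63.6 (0.75, adjusted p = 0.208). The scaffold gene Ahnak was at 572, 188 and 200 against 494, 552 and 458 (0.76, adjusted p = 0.397), so that control 1 was the highest sample. In the marginal zone list 2 of 10 members were called higher, Mzb1 and Pdia4, both of which serve the secretory pathway. In the germinal centre list 2 of 7 were called higher, Mki67 and Basp1.

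For Fcer2a, Fcmr, H2-Aa and Ahnak control 1 thus stood nearer the high-fat diet samples than the other controls did, as it did for the share of Jchain-rich cells. Its 29 B cells also held the most RNA of macrophage markers (3659 plain CPM, against 941 and 1908 in the other controls and 1799 to 2169 on the high-fat diet) and of fibroblast markers (13016, against 4341 to 8683 in the other 5 samples). Whether these had a part in its values was not tested. Without control 1, 523 genes were called, 321 higher and 202 lower.

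**Figure D4:**
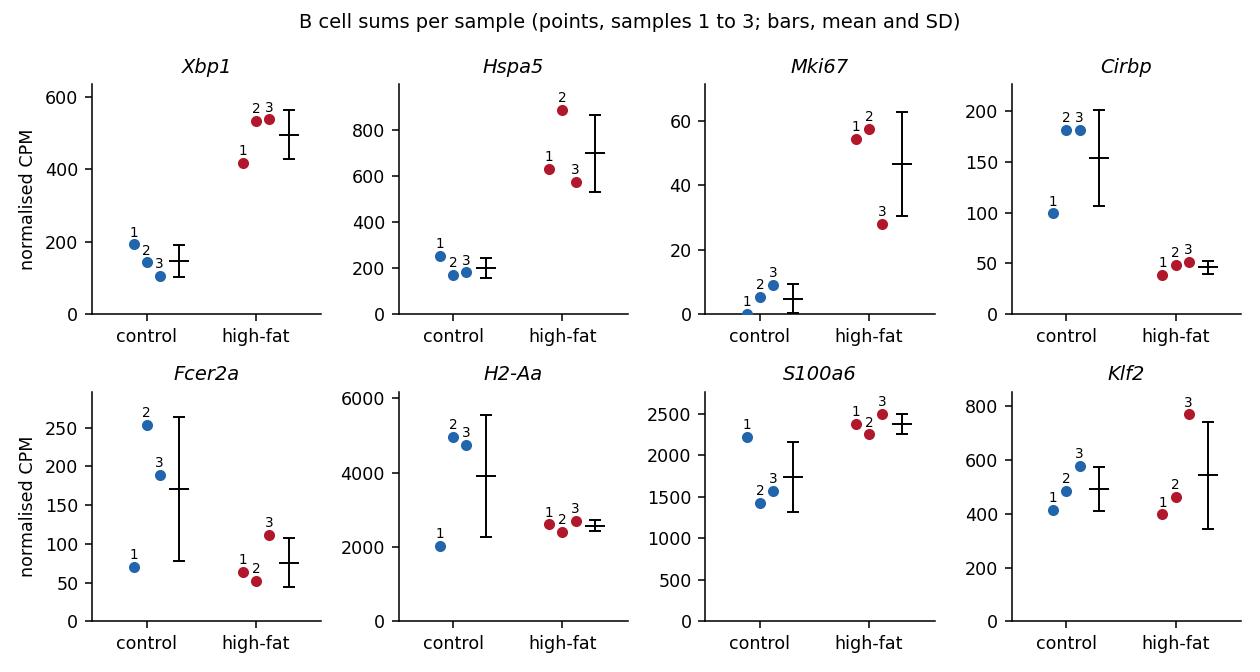
Points give normalised CPM of 8 genes in the B cell sum of each sample, numbered by replicate, with mean and SD beside them (n = 3). Xbp1, Hspa5, Mki67 and Cirbp separate the groups, whereas control 1 lies among or below the high-fat diet samples for Fcer2a and H2-Aa, and Klf2 overlaps.

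B cell receptor signalling genes showed no called change, with 0 of 26 tested members past the edgeR threshold and a median of -0.04. Of these, 4 reached an unadjusted p under 0.05, DESeq2 called 1 (Cd72), and edgeR called 1 when Jchain-rich cells were left out. Cd72, an inhibitory co-receptor, was at 58.3, 189 and 166 normalised CPM in controls and 70.6, 66.7 and 41.9 on the high-fat diet (-1.32, edgeR adjusted p = 0.0833). The gene called by edgeR after removal of the Jchain-rich cells was Malt1, a protease of receptor signalling to NF-kB, at 5.83, 19.8 and 17.8 against 32.6, 31.5 and 35.7 over all B cells (0.87, adjusted p = 0.0889).

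Of 17 tested B identity markers, the genes of the B cell rule among them, edgeR called 1 higher, Mzb1, with a median of -0.19. An unadjusted p under 0.05 was reached by 5, and DESeq2 called 2, Fcmr and Mzb1. Without control 1, edgeR called 1 higher and 5 lower. Of 18 lineage transcription factors 0 passed by edgeR and 0 by DESeq2, with 4 at an unadjusted p under 0.05 and a median of -0.16. Pax5 was at 40.8, 102 and 84.3 normalised CPM in controls and 80.6, 53.8 and 83.8 on the high-fat diet (-0.20, edgeR adjusted p = 0.762). Ebf1, which starts the B cell program, was at 548, 1508 and 989 against 470, 441 and 716 (-0.93, adjusted p = 0.206). Pou2af1, a co-activator of immunoglobulin genes, was at 93.3, 139 and 135 against 196, 189 and 224 (0.66, adjusted p = 0.109), with no overlap. Klf2, named in the study's title for endothelial cells and known in B cells as a regulator of homing and subset identity, was at 414, 486 and 577 in controls and 398, 463 and 770 on the high-fat diet. Its groups overlapped (log2 change 0.12, adjusted p = 0.886), and it was not called whichever sample was left out.

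Cells with cycling genes were few. After each cell was thinned to 1000 UMIs, cells with at least 2 UMIs over 10 cycling genes made up 0%, 0.403% and 0.972% of B cells in control 1, 2 and 3 and 2.94%, 2.74% and 1.30% in high-fat diet 1, 2 and 3. Without thinning the shares were 0%, 0.733% and 2.31% against 6.27%, 6.85% and 2.60%. The groups did not overlap. The shares of high-fat diet 2 and 3 came from 73 and 154 B cells, and thus rest on very few cycling cells. With thinning the mean difference was 1.87 percentage points. In the exact permutation test p was 0.1, the smallest value 3 against 3 samples can give. It was 0.2 when cells scored as doublets were left out, where the share in high-fat diet 3 was 0.662%, and also with a B cell rule of 5 UMIs, where it was 0.704% against 1.14% in control 3. The 0 of 29 cells in control 1 allows a share of up to 10.3%. In the cycling list 2 of 15 tested genes were called higher, Mki67 and Tyms, and all 15 had positive values.

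Some of the diet differences in B cells were seen in T cells and fibroblast-rule cells of the same samples. Cirbp (chr10:80165985-80172786, plus strand), which binds RNA and is induced by mild cold, fell from 99.1, 181 and 181 normalised CPM in control B cells to 38.4, 48.2 and 51.2 on the high-fat diet (-1.87, SE 0.24, edgeR adjusted p = 0.00614). Its plain CPM were 111, 115 and 134 against 47.2, 66.5 and 66.8 in T cells, and 121, 112 and 142 against 56.9, 50.1 and 50.1 in fibroblast-rule cells. Rbm3, the other cold-inducible gene of the list, fell from 379, 729 and 827 normalised CPM to 195, 141 and 259 in B cells (-1.73, SE 0.31, adjusted p = 0.0221). In T cells it was at 412, 627 and 800 against 216, 154 and 306 plain CPM. For both genes the groups did not overlap in any of the 3 cell types. The genes compared between cell types were singled out after their values were seen. The share of all genes separated in this way is not given.

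Cebpb was at 9.84, 7.58 and 10.6 plain CPM in control T cells and 82.3, 93.1 and 60.8 in high-fat diet T cells. In fibroblast-rule cells it was at 13.8, 13.9 and 46.2 against 177, 153 and 130. Hspa5 was at 278, 104 and 131 against 406, 705 and 476 in T cells, and at 268, 261 and 202 against 676, 1070 and 1117 in fibroblast-rule cells. The groups were separate in all these cells. A test of the difference between the diet effects of B and T cells gave log2 differences of -0.07 for Cebpb (adjusted p = 0.960 by edgeR), 0.29 for Hspa5 (0.579), -0.51 for Cirbp (0.371) and 0.02 for Rbm3 (0.987). None of the 4 passed. Fibroblast marker RNA was at 4341 to 13016 plain CPM in the B cell sums and 2882 to 13891 in the T cell sums. Whether free RNA had a part in the differences seen in several cell types was not tested.

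**Figure D5:**
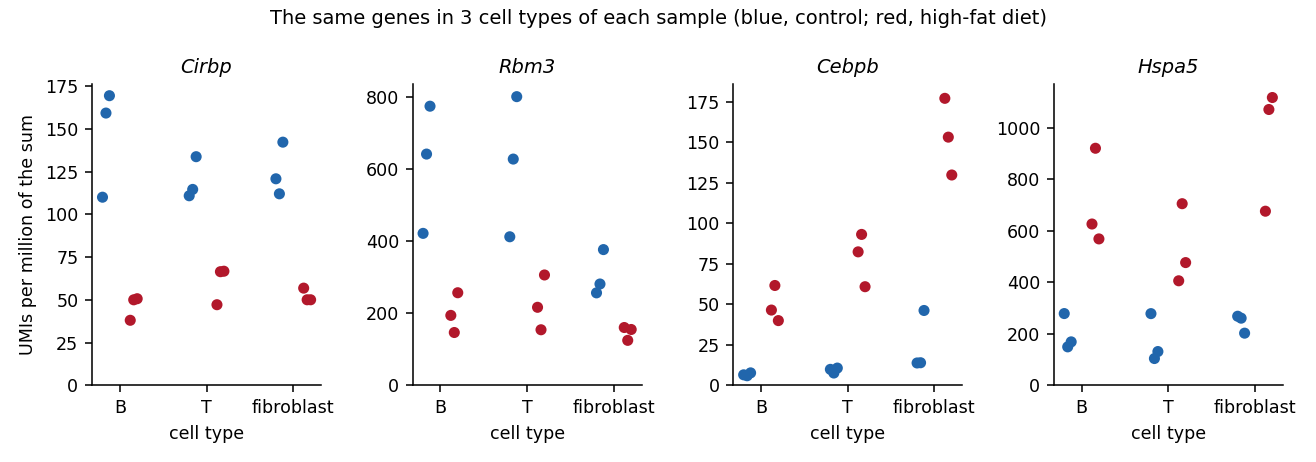
Points give plain CPM of Cirbp, Rbm3, Cebpb and Hspa5 in the summed B cells, T cells and fibroblast-rule cells of each sample (blue, control; red, high-fat diet). Cirbp and Rbm3 are lower and Cebpb and Hspa5 higher in the high-fat diet samples of all 3 cell types.

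Over all genes, the diet effect differed between B and T cells for 59 of 10237 genes with a more positive effect in B cells (0.576%) and 29 with a more negative one (0.283%). The change of Xbp1 was more positive in B than in T cells by 1.24 on the log2 scale (edgeR adjusted p = 0.00444), and that of Creld2 by 1.26 (adjusted p = 0.0136). In T cells Xbp1 was at 133, 48.6 and 60.4 plain CPM in controls and 111, 152 and 110 on the high-fat diet. Without the Jchain-rich cells these differences were 0.47 (adjusted p = 0.529) and 0.55 (adjusted p = 0.492), and neither passed. The change of Nr1d1 was more negative in B cells, with a difference of -1.75 (adjusted p = 0.0139), and of -1.93 (adjusted p = 0.0216) without the Jchain-rich cells. Its T cell values were 17.9, 40.8 and 43.6 in controls and 22.3, 38 and 17.8 on the high-fat diet.

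B cell RNA in the T cell sums moved with these comparisons. The summed B identity markers were at 535, 597 and 1149 plain CPM in control T cells and 463, 500 and 472 in high-fat diet T cells, and Cd79a was at 27.7, 66.5 and 145 against 10.3, 3.8 and 2.97. Its part in the differences between B and T cells was not tested. In B cells, T cell markers moved too. Their sum was 110, 99.3 and 127 plain CPM in controls and 49.9, 55.8 and 75.2 on the high-fat diet, with Cd3e at 0 by rule. Lck, the T cell receptor kinase, fell by 1.67 on the log2 scale (edgeR adjusted p = 0.0145), and Cd8b1 was called lower (adjusted p = 0.0248) with 0 UMIs in high-fat diet 2 and 3. DESeq2 called 0 of the 6 tested T cell markers, where 3 had an unadjusted p under 0.05 by edgeR, and edgeR called 0 with the replicate block and 0 when control 2 or either of high-fat diet 1 and 2 was left out. Markers of neutrophils, S100a8 among them, summed to 175, 52.3 and 158 plain CPM in controls and 427, 248 and 303 on the high-fat diet, with 0 of 4 tested genes called by edgeR, 3 at an unadjusted p under 0.05 and 3 called by DESeq2. Whether RNA or cells of these types had a part in the diet calls was not tested.

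The remaining lists showed few calls. Of 15 heat shock genes 2 were called higher, Hsph1 at 1.64 (edgeR adjusted p = 0.0150) and Hspb1 at 1.16 (adjusted p = 0.0465). The median was 0.62, and 14 of the 15 had positive values. By edgeR 10 were higher at an unadjusted p under 0.05, and DESeq2 called 3. Their sum was 2686 to 3309 plain CPM in control B cells and 4744 to 5098 on the high-fat diet. Among the interferon response genes given next, 10 were higher at an unadjusted p under 0.05, and DESeq2 called 1. Of 23 interferon response genes 22 had positive values with a median of 0.68, and 1 was called, Ly6a, a surface protein of activated lymphocytes, at 898, 626 and 616 normalised CPM in controls and 1461, 1518 and 1282 on the high-fat diet (1.01, adjusted p = 0.0461). Of 13 mitochondrially encoded genes 1 was called higher, mt-Nd6. Of 18 trafficking genes 1 was called, Rgs2, lower on the high-fat diet. By edgeR 0 of 36 oxidative phosphorylation genes, 0 of 13 cholesterol synthesis genes and 0 of 15 lipid handling genes were called, with medians of 0.00, -0.17 and -0.09. An unadjusted p under 0.05 was reached by 0, 2 and 1 of them, and DESeq2 called 0. The lists of MHC class I, costimulation, immediate early, NF-kB target, immature and age-associated B cell genes and the marker lists of macrophages, dendritic cells, fibroblasts, smooth muscle, endothelium, lymph node stroma, erythroid cells and adipocytes held 0 calls by either tool, with 0 to 4 members each at an unadjusted p under 0.05.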

How the data were processed

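Droplet 3′ single-cell RNA libraries of 6 aorta samples were analysed. The deposited matrices hold raw UMI counts for 27998 genes per cell, and the authors used Cell Ranger 3.0 and build mm10, per the submitters' processing notes; the annotation and cell calling are not given in the sources used here. The members, gene lists and rules were chosen with earlier results of these data known.

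Counts were summed per sample and cell type, since cells are not replicates, and tested with the edgeR 4.0.16 quasi-likelihood test (R 4.3.3; robust fit, TMM factors, filterByExpr) with Benjamini-Hochberg adjustment over all tested genes at 0.05. Normalised CPM uses the TMM factors, and plain CPM does not. The comparison of B with T cells blocked on sample. Shares were compared by exact two-sided permutation. Doublets were scored with Scrublet (scanpy 1.11.5) per well and kept, as the rule keeps them. Only the diet test in B cells was tried on simulated counts, drawn with the same dispersion for every gene. The comparison with T cells and the test of the difference of diet effects were not. The 39 lists are written out by members in the analysis, and the text prints those with calls and those of B cell biology. The named genes are the 10 largest called changes in each direction among genes averaging 20 CPM or more whose groups did not overlap, for B against T cells the 10 largest in each direction averaging 50 CPM or more, members of the B cell lists, up to 4 members of other lists, and Klf2. Jchain-rich cells, Hsp90b1, Lck and Cd8b1, and the genes compared with other cell types were singled out after their values were seen. Alternatives were DESeq2 1.42.0, other size factors and filters, other cell rules, single wells, single samples left out and the replicate number as a block. Cells were handled in Python 3.11.15 (pandas 2.3.3, numpy 2.4.6, scipy 1.17.1, figures by matplotlib 3.10.9). Gene coordinates came from the GENCODE annotation of GRCm38 and promoters from RefSeq. Immunoglobulin constant genes were not analysed here. One marker gene is not reported here.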

Additional observations from a re-analysis of the deposited data

Results flagged for a closer look

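The diet effect in B cells differed from that in T cells for 88 genes by the edgeR test of the difference itself. The 5 with the smallest p are given with their values, and B cell RNA in the T cell sums moved with the samples, as described above, so its part in them was not tested. Kcnn4, a calcium-activated potassium channel of lymphocytes, had a difference of 2.01, with 11.7, 21.8 and 27.8 CPM in control and 54.6, 55.8 and 55.7 in high-fat diet B cells, against 25.0, 83.1 and 79.6 and 52.6, 37.9 and 38.7 in T cells. Phgdh, the first enzyme of serine synthesis, had a difference of 1.96, with 52.8, 59.1 and 69.4 CPM in control and 98.7, 96.2 and 132 in high-fat diet B cells, and 27.3, 74.0 and 67.5 against 23.5, 30.7 and 34.4 in T cells. Rbpms2, an RNA-binding protein of muscle, had a difference of -2.46, with 29.3, 24.7 and 37.5 CPM in control and 7.08, 9.62 and 19.1 in high-fat diet B cells, and 43.7, 25.1 and 36.2 against 53.4, 67.0 and 56.0 in T cells. Ramp1 had a difference of -1.68, with T cell values of 232, 258 and 230 in controls and 283, 393 and 303 on the high-fat diet. Auts2 had a difference of -1.89, with 64.5, 41.9 and 38.5 CPM in control and 19.7, 19.2 and 20.7 in high-fat diet B cells, and 63.9, 51.7 and 40.7 against 102, 83.9 and 41.6 in T cells. For all 5 genes the B cell groups did not overlap, and the means of the T cell sums moved the other way.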

How the results depend on the processing

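The B cell diet genes numbered 168 and were 75 with DESeq2, 321 with no filter on low counts, 328 without B cells holding 20 or more fibroblast UMIs, and 64 with the replicate block. They were 0 in well 1 alone, in well 2 alone and with 29 B cells per sample (edgeR; at an unadjusted p under 0.05 343, 258 and 93 genes, and by DESeq2 7, 4 and 3). Leaving out single samples gave 4 to 523. The labels do not say whether replicate numbers pair the samples. Deviations from the group means correlated across genes at -0.03, -0.05 and 0.07 for same-numbered samples. For the other pairs they correlated at -0.113 to 0.0917. With 3 samples per group these values cannot decide whether samples were paired. List members called numbered 30 of 395 tested, beside 168 of 9584 over all genes. They were 17 of 389 without Jchain-rich cells, 0 in single wells or with equal cells, and 21 of 407 with the block. Leaving out single samples gave 2 of 352 (without high-fat diet 1) to 76 of 413 (without control 1). Over all genes these 2 fits called 4 of 6821 and 523 of 11076. Genes differing between B and T cells numbered 993, with 935 to 1114 without single samples and 930 to 1429 over the other settings. The differences of diet effects, 88, were 28 with DESeq2, 280 with no filter, 50 with a B cell rule of 5 UMIs and 24 to 225 without single samples. The difference in B cell share of kept cells was -20.6 to -5.98 points without single samples, that of B plus T cells -31.6 to 0.410, and that of cycling cells 1.56 to 2.38. The B plus T share turned to 8.30 in well 1 alone and to 0.410 without control 3. Sdc1 turned to -0.069 without Jchain-rich cells and to -0.080 when control 1 was also left out. With 321 higher and 202 lower genes without control 1, and 133 and 92 with at least 1000 genes per cell, the split shifted; the cause was not tested. The gene fits on single wells and those without Jchain-rich or fibroblast-UMI cells were chosen after seeing the data. Shares of light chains, Ighd-positive and class-switched cells were not run. Control 1, with 29 B cells, limits every gene under 19.4 CPM.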
